A study of Mus musculus with 32 samples.

Results

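*Rps4l*, its paralogue *Rps4x* and *Tmtc1*, the gene on the opposite strand around *Rps4l*, are 3 genes of the 53715 in the gene table and 9 transcripts of the 135181 in the isoform table. *Rps4l* was selected on its measured values in *Kdm5c*-KO against WT, DM against WT and DM against *Kmt2a*-HET, so its values in those comparisons are described here with no test. *Rps4x* was added for its sequence and *Tmtc1* for its position, and both were tested in every comparison. The log2 fold changes of *Rps4l* in *Kmt2a*-HET against WT and in DM against *Kdm5c*-KO are differences between those same values, so they are described too. The tests kept for *Rps4l* were hippocampus against amygdala within a genotype, and correlations of its deviations from the genotype mean.

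The mice were adult male F1 hybrids (129xB6) from 129S1/SvImJ *Kmt2a*+/- fathers and C57BL/6J *Kdm5c*+/- mothers, and no group was treated. WT carried intact copies of both genes, *Kmt2a*-HET was *Kmt2a*+/- with *Kdm5c*+/y, *Kdm5c*-KO was *Kmt2a*+/+ with *Kdm5c*-/y, and the double mutant (DM) was *Kmt2a*+/- with *Kdm5c*-/y. Both mutations are constitutive, so they were present in every cell type and throughout development. The amygdala and the hippocampus of the same 4 mice per genotype were sequenced, which gave 32 libraries from 16 mice. KDM5C is an X-linked enzyme that takes methyl groups off lysine 4 of histone H3, a mark of active promoters, and KMT2A is an enzyme that places them. The comparisons ask how loss of either or both enzymes alters RNA levels in these tissues.

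Libraries held 19215489 to 26033593 gene counts (amygdala) and 19322259 to 27798976 (hippocampus, all 16 libraries). All 5 hippocampal markers (*Prox1*, *Dsp*, *C1ql2*, *Fibcd1*, *Zbtb20*) were called higher in the hippocampus in each genotype, whereas 1 of 4 amygdala markers was called higher in the hippocampus in each genotype and at most 2 were called lower. Markers of striatum summed to between 137 and 1112 CPM (counts scaled to the library total) in amygdala libraries, and markers of choroid plexus to between 36.6 and 4532 CPM in hippocampal libraries. In the amygdala choroid plexus markers summed to 35.8 to 1821 CPM in DM and to at most 72.5 CPM in the other genotypes, and 3 of 5 were called higher in DM than in WT and than in *Kmt2a*-HET. The part of these differences in tissue content in the results below was not tested. The gene totals of *Kmt2a* were not called in any mutant, and *Kdm5c* was called in *Kdm5c*-KO hippocampus only (log2 fold change -0.34, adjusted *p* = 0.0299), but each total also counts exons outside the deleted part.

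*Rps4x* encodes, on the X chromosome, the protein eS4 of the small ribosomal subunit, the part of the ribosome that reads the mRNA. Transcripts of ribosomal protein genes are among the most abundant in a cell, and many have been copied back into the genome by reverse transcription, leaving intronless copies. Most such copies are silent, and a few are transcribed from wherever they landed. *Tmtc1* encodes a membrane enzyme of the endoplasmic reticulum that adds mannose to the cadherin family of adhesion proteins.

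*Rps4l* (ENSMUSG00000063171.4) lies at chr6:148354656-148355598 on the plus strand (mm10, GENCODE M21), and the annotation calls it a transcribed processed pseudogene with a single exon of 943 bases. It sits inside intron 5 of *Tmtc1* (ENSMUSG00000030306.14, chr6:148232430-148444389, minus strand), an intron of 74705 bases. *Rps4l* shared 0 exon bases with *Tmtc1*. The nearest *Tmtc1* exons were 18323 and 55439 bases away, and the *Tmtc1* start site 89733 bases away. *Rps4x* (ENSMUSG00000031320.9) lies at chrX:102184941-102189394 on the minus strand and has 7 exons in its coding transcript of 975 bases.

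Aligned with that transcript, *Rps4l* matched at 716 of 920 bases (77.83%). In the coding part 157 of 789 aligned bases differed. Of these differences 127 (80.9%) fell at the last position of a codon, 23 at its start and 7 at its middle. Of 262 codons compared, 122 differed with no change of amino acid and 17 with one, and 0 were stop codons in *Rps4l*, so that 93.51% of the amino acids were the same. The longest open reading frame of *Rps4l* had 262 codons, against 263 in *Rps4x*, and began at the base aligned with the *Rps4x* start codon. The bases G and C made up 83.7% of last codon positions in *Rps4l* and 52.5% in *Rps4x*, and 61.3% and 47.7% of the aligned coding part. The copy is therefore divergent in its letters and close in the protein they would encode.

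The stretch matching exon 3 of *Rps4x*, which shares with exon 5 the highest number of differing bases, and that matching exon 4, one of the better matched exons, are shown because a read can be assigned to one paralogue only by such differences. Sequences are those of the GENCODE M21 transcripts, written 5′ to 3′ on the strand of each gene, with capitals at bases that differ between the paralogues. The stretch matching exon 3 covers chr6:148354791-148354971 in *Rps4l* (plus strand) and chrX:102187822-102188002 in *Rps4x* (minus strand), and 42 of its 181 bases differ. The stretch matching exon 4 covers chr6:148354972-148355069 and chrX:102187355-102187452, and 16 of its 98 bases differ.
Rps4l at exon 3: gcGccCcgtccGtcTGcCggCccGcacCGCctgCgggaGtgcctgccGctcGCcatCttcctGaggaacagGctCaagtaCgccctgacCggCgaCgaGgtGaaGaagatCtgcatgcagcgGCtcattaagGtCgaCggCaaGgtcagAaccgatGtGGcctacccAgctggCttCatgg
Rps4x exon 3: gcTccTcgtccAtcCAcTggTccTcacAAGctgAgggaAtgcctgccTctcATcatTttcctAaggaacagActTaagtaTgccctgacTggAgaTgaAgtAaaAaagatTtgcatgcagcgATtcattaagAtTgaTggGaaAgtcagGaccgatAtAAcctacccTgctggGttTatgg
Rps4l at exon 4: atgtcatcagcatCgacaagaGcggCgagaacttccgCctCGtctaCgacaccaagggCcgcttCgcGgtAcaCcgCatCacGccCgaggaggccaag
Rps4x exon 4: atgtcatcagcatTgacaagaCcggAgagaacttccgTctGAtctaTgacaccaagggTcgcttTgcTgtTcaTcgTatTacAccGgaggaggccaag

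The differences were spread along the whole transcript. Any stretch of *Rps4l* as long as 1 read of 150 bases differed from *Rps4x* by 21 to 50 bases (median 32). None of the 794 such stretches occurred exactly in a transcript of another gene, while 14 of 844 stretches of 100 bases did, all in *Rps4l-ps*, a pseudogene 95.83% identical to *Rps4l* over its 768 bases. *Rps4l-ps* had at most 1 count in any library, and *Rps4x-ps*, the remaining locus of that name, at most 3.

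**Figure D1:**
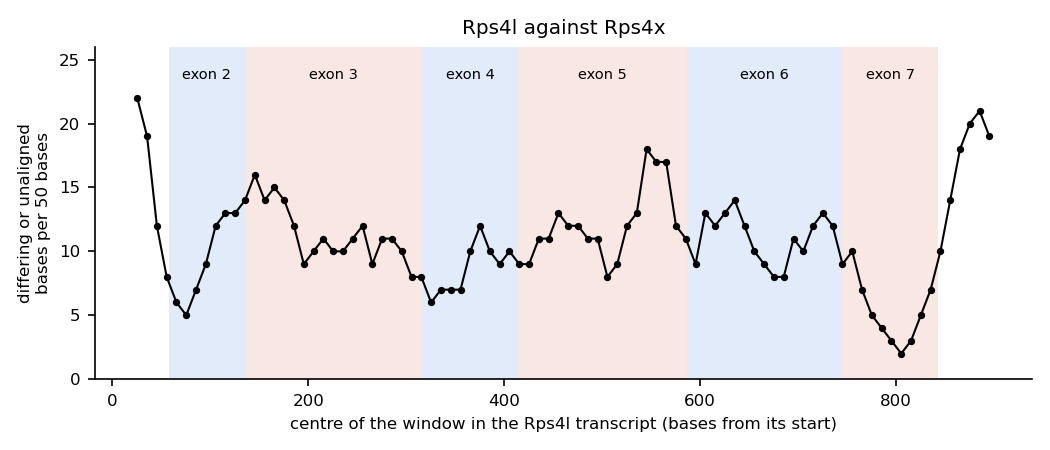
Differences between *Rps4l* and *Rps4x* along the *Rps4l* transcript. The vertical axis counts differing or unaligned bases in windows of 50 bases, the horizontal axis gives the centre of each window in bases from the transcript start, and shading marks the stretches aligned with the coding exons of *Rps4x*. Windows differ by between 2 and 22 bases, with the fewest in the part that matches exon 7.

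Promoter windows of 250 bases before to 50 after the start were found in RefSeq (GRCm38.p6) for *Rps4x* and *Tmtc1*. They were searched on both strands for 4 strings. The E-box string CACGTG occurs in 7.15% of all 32851 windows, and the E2F string TCCCGC in 19.98%. The ETS string CCGGAAG occurs in 8.86%, and the TATA box string TATAAA in 13.62%. *Tmtc1* held 1 match to the E2F string, and neither window held another of the 4.

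*Rps4l* counts were scaled by the library size factors of the region (normalised counts). In the amygdala the 4 WT libraries had 739, 406, 389 and 301 normalised counts. The 4 *Kmt2a*-HET libraries had 466, 399, 416 and 317. The 4 *Kdm5c*-KO libraries had 1751, 1614, 1428 and 1461, and the 4 DM libraries 1948.5, 1345, 1334 and 1859.6. All 8 libraries without *Kdm5c* lay above all 8 with it, with 1.81-fold between the lowest DM library, which was the lowest of the first set, and the highest WT library. *Rps4l* was chosen on these values, so its separation is a description. The share of all genes that separate in this way was not computed for either region. One WT library, at 739, stood above the other 3, whose highest value was 406.

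In the hippocampus the WT libraries had 422, 221, 354 and 304 normalised counts of *Rps4l*. The *Kmt2a*-HET libraries had 318, 320.3, 408 and 215. The *Kdm5c*-KO libraries had 1522, 1522, 1733 and 1451, and the DM libraries 1838, 1279.6, 1483 and 1326. Again the 8 libraries without *Kdm5c* lay above the 8 with it, with 3.03-fold between the lowest DM and the highest WT library. Within each genotype the spread was smaller than this gap.

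**Figure D2:**
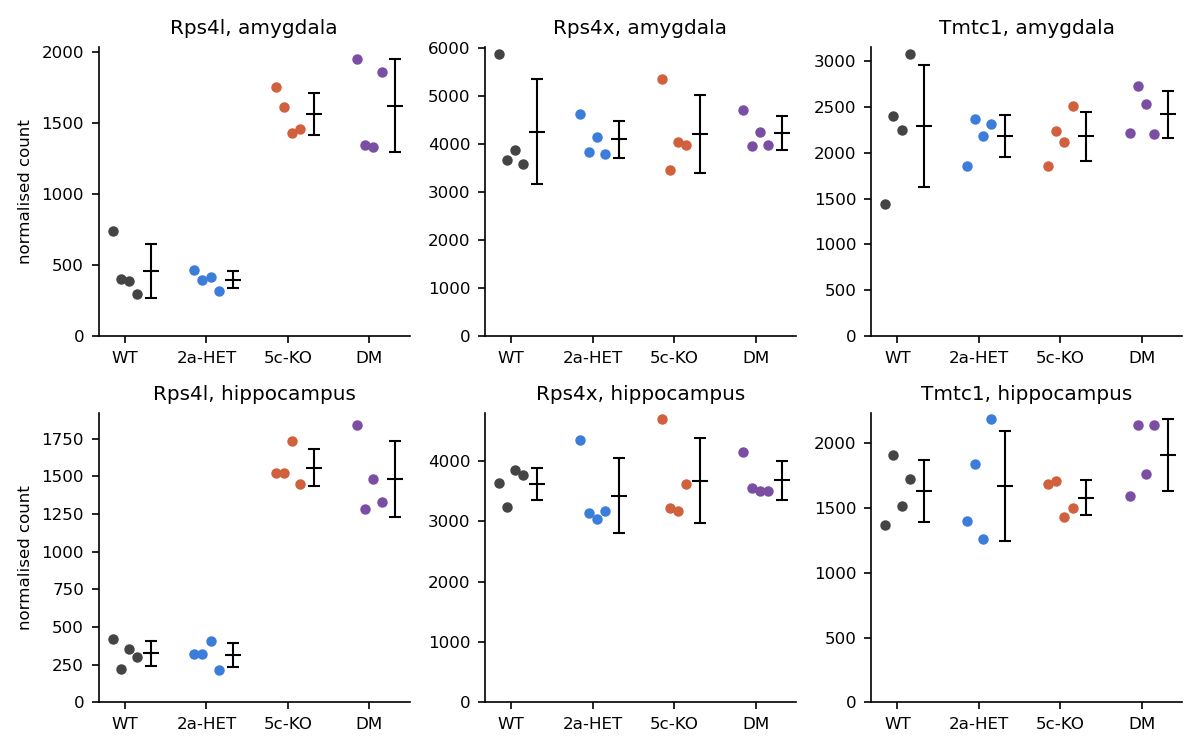
Normalised counts of *Rps4l*, *Rps4x* and *Tmtc1* in every library, by genotype and region. Each point is 1 mouse, in the order of the replicate numbers, and bars give the mean ± SD of 4 mice. Of these genes only *Rps4l*, which was chosen on such values, separates, with 1334 to 1948.5 in *Kdm5c*-KO and DM amygdala against 301 to 739 in WT and *Kmt2a*-HET.

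The fitted log2 fold change of *Rps4l* in *Kdm5c*-KO over WT was 1.77 (SE 0.22) in the amygdala and 2.26 (SE 0.19) in the hippocampus, or 3.41-fold (95% interval 2.53 to 4.59) and 4.8-fold (3.7 to 6.22). For DM over WT it was 1.82 (SE 0.22) and 2.19 (SE 0.19). For DM over *Kmt2a*-HET it was 2.02 (SE 0.22) and 2.23 (SE 0.19). These are the values *Rps4l* was chosen for. The share of all tested genes called in these comparisons at an adjusted *p* under 0.1 (DESeq2 Wald test, Benjamini-Hochberg) was, amygdala before hippocampus, 0.756% and 1.01% when *Kdm5c*-KO was set against WT, 0.99% and 0.881% when DM was, and 0.805% and 0.606% for DM against *Kmt2a*-HET.

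In *Kmt2a*-HET against WT the log2 fold change of *Rps4l* was -0.20 (95% interval -0.63 to 0.23) in the amygdala and, with groups that overlapped there too, -0.04 (-0.42 to 0.34) in the hippocampus. That comparison called 0.00329% of all genes in the amygdala. The hippocampal one called 0% (edgeR likewise 0), with 715 genes at an unadjusted *p* under 0.05. Without the WT amygdala library at 739 the amygdala value was 0.13. For DM against *Kdm5c*-KO the amygdala value was 0.05 (-0.37 to 0.48) and the hippocampal value -0.07 (-0.44 to 0.30), again with overlapping groups, in comparisons that called 0.00329% and 0.0067% of genes. The intervals correspond to a DM level between 0.772 and 1.39 times the *Kdm5c*-KO level in the amygdala and between 0.737 and 1.23 times in the hippocampus. With ERCC scaling the hippocampal value was -0.81, outside this interval.

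*Rps4x* showed no such pattern. In the amygdala its normalised counts were 5875, 3668, 3862 and 3585 in WT and 5344, 3449.7, 4034 and 3984 in *Kdm5c*-KO. The WT mean was 4247 ± 1091 (SD, n = 4), the *Kmt2a*-HET mean 4094 ± 387, the *Kdm5c*-KO mean 4203 ± 806 and the DM mean 4224 ± 348. In the hippocampus the WT libraries had 3635, 3233, 3847 and 3765 and the *Kdm5c*-KO libraries 4703, 3219, 3177 and 3613, with means of 3620.3 ± 272 and 3678 ± 711, against 3429 ± 619 in *Kmt2a*-HET and 3679 ± 318 in DM. The groups overlapped in every genotype comparison.

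*Rps4x* was not called in any of the 10 genotype comparisons (adjusted *p* of 0.987 or above). Its log2 fold change in *Kdm5c*-KO over WT was -0.02 (95% interval -0.33 to 0.30) for the amygdala and 0.02 (-0.25 to 0.29) for the hippocampus. The intervals leave room for a change of up to 1.23-fold upward in either region.

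**Figure D3:**
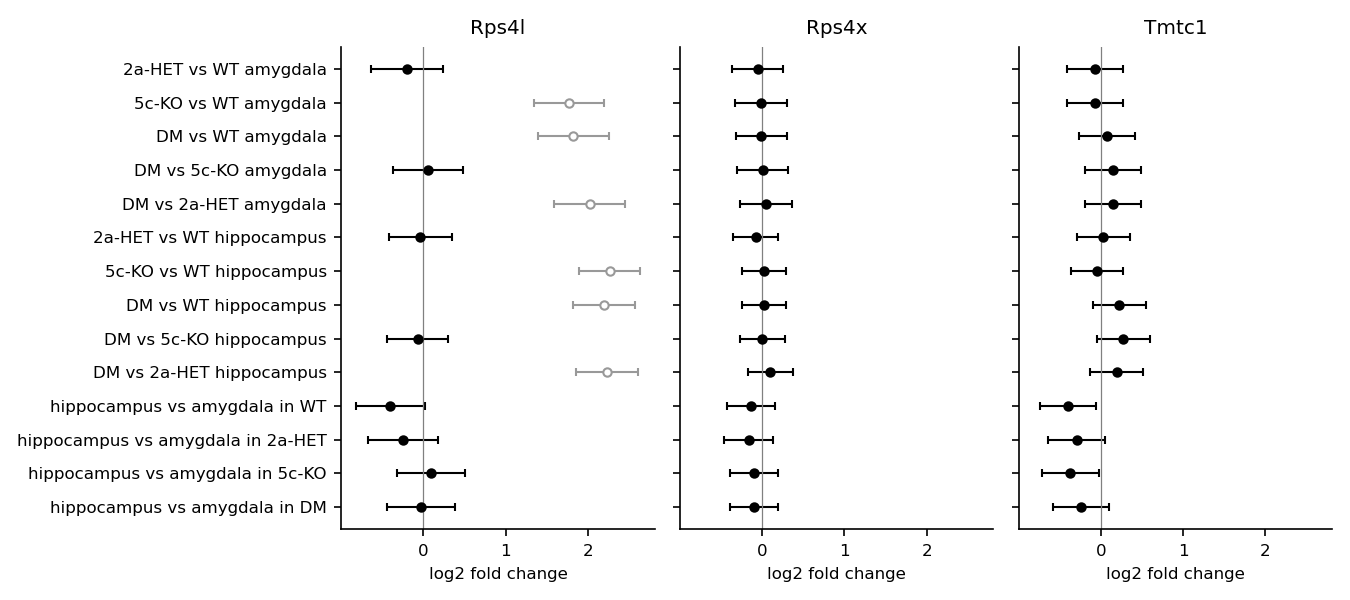
Log2 fold changes of the 3 genes in each genotype and region comparison, first group over second, with 95% intervals from the DESeq2 standard errors. Open grey points are the values by which *Rps4l* was chosen, and filled points are all other comparisons. The open points lie between 1.77 and 2.26, while the other points of the 3 genes lie between -0.40 and 0.27.

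The 2 paralogues were also compared within each library, where size factors cancel. *Rps4l* made up 9.51% ± 1.44 (SD, n = 4) of the *Rps4l* plus *Rps4x* counts in WT amygdala and 8.86% ± 0.763 in *Kmt2a*-HET. *Kdm5c*-KO libraries had a share of 27.4% ± 3.12 and DM libraries 27.6% ± 3.64. In the hippocampus the shares were 8.17% ± 1.69, 8.55% ± 2.54, 30.1% ± 4.66 and 28.6% ± 1.95 in the same order. All 16 libraries with *Kdm5c* lay between 6.32% and 11.8%, and all 16 without it between 23.9% and 35.3%. As the share holds the counts *Rps4l* was chosen by, it is given with no test. Reading of the 2 transcripts per length changed little, since they are of nearly the same size.

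**Figure D4:**
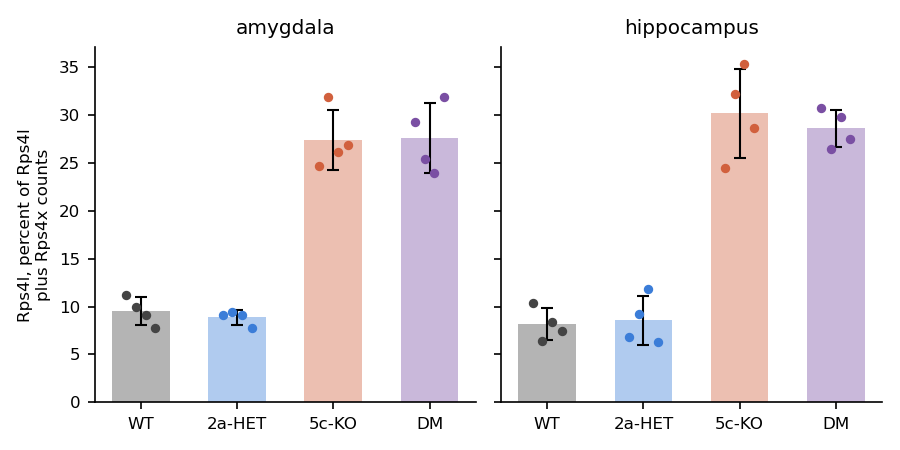
Share of *Rps4l* in the summed counts of *Rps4l* and *Rps4x*, in percent, by genotype and region. Bars are means of 4 mice with SD, and points are libraries. WT and *Kmt2a*-HET means lie between 8.17% and 9.51%, and *Kdm5c*-KO and DM means between 27.4% and 30.1%.

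In CPM per kilobase of transcript, a scale that can be set across genes and regions, *Rps4l* had its lowest mean level in *Kmt2a*-HET hippocampus (14.5 ± 3.74), followed by WT hippocampus (15.0 ± 3.90), *Kmt2a*-HET amygdala (18.8 ± 2.93) and WT amygdala (20.9 ± 8.23). A gap followed, and then came DM hippocampus (67.4 ± 11.4), *Kdm5c*-KO hippocampus (72.7 ± 5.73), *Kdm5c*-KO amygdala (73.7 ± 7.20) and DM amygdala (75.7 ± 15.96). Within the lower 4 and within the upper 4, neighbours in this order differed by less than the larger of their SDs. On the same scale *Rps4x* lay between 153 and 191 in the 8 groups and *Tmtc1* between 8.29 and 12.7. On this scale *Rps4l* was thus above *Tmtc1* and below *Rps4x* in all 8 groups.

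*Tmtc1* is transcribed from the opposite strand through the *Rps4l* locus. In the amygdala its normalised counts were 1443, 2398, 2249 and 3067 in WT and 1858, 2229, 2112 and 2502 in *Kdm5c*-KO. The DM libraries had 2217, 2727, 2532 and 2199.9, and the mean of WT was 2289 ± 667, of *Kmt2a*-HET 2177 ± 229.8, of *Kdm5c*-KO 2175 ± 267 and of DM 2419 ± 256. In the hippocampus WT had 1371, 1910.3, 1515 and 1721, *Kdm5c*-KO 1679.6, 1705, 1430.3 and 1497, and DM 1591, 2138, 1759.8 and 2140.2. The means there were 1629 ± 236, 1669 ± 422, 1578 ± 135 and 1907 ± 276, in the order WT, *Kmt2a*-HET, *Kdm5c*-KO and DM. All of these groups overlapped.

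*Tmtc1* was not called in any of the 10 genotype comparisons. In *Kdm5c*-KO over WT its log2 fold change was -0.07 (95% interval -0.41 to 0.27, adjusted *p* = 0.9999) in the amygdala and -0.05 (-0.37 to 0.27, adjusted *p* = 0.994) in the hippocampus. Its difference with the lowest adjusted *p* was DM over WT in the hippocampus, at 0.23 (-0.09 to 0.55, unadjusted *p* = 0.165, adjusted *p* = 0.832), and its largest difference was DM over *Kdm5c*-KO in the hippocampus, at 0.27 (-0.05 to 0.59, unadjusted *p* = 0.0938, adjusted *p* = 1). The highest upper bound among its 10 intervals was 1.51-fold.

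Between regions, hippocampus against amygdala, *Tmtc1* had log2 differences of -0.40 (SE 0.18) in WT, -0.29 (SE 0.18) in *Kmt2a*-HET, -0.37 (SE 0.18) in *Kdm5c*-KO and -0.24 (SE 0.18) in DM. The adjusted *p* was 0.108, 0.241, 0.135 and 0.372 in that order, so none was called, where 21.2%, 29.6%, 24% and 27.1% of all genes were. As both regions came from the same mice, the fit was repeated with the mouse as a block. It called *Tmtc1* lower in the hippocampus in WT (-0.36, adjusted *p* = 0.0402), *Kmt2a*-HET (-0.32, adjusted *p* = 0.0615) and *Kdm5c*-KO (-0.36, adjusted *p* = 0.033) and not in DM (-0.25, adjusted *p* = 0.178). With the block 23.7%, 33.2%, 26.4% and 30.9% of genes were called, so a call between regions is common.

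The difference of *Rps4l* in WT was also -0.40 (SE 0.22, adjusted *p* = 0.219) and was not called. It was called with the mouse as a block (-0.36, adjusted *p* = 0.0666), and in 2 of the 8 fits without a block that left out 1 WT library. Without the WT amygdala library at 739 the unblocked value was -0.08. In the other genotypes the regional difference of *Rps4l* was -0.25 (*Kmt2a*-HET), 0.09 (*Kdm5c*-KO) or -0.03 (DM), with adjusted *p* between 0.468 and 0.954 and no call with the block. The difference of *Rps4x* lay between -0.16 and -0.10 in the 4 genotypes and was called in none, with or without the block. Scaling by the ERCC spike-in RNA changed the mean log2 size factors of the groups by 0.41 to 0.81 in favour of the hippocampus and turned all of the negative differences of the 3 genes positive, so their direction holds only relative to the other genes.

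The fold changes of *Rps4l* were also set side by side across regions, with no test, since they hold the values it was chosen for. The difference of the log2 fold changes, hippocampus less amygdala, was 0.49 (95% interval -0.10 to 1.08) for *Kdm5c*-KO and 0.37 (-0.22 to 0.96) for DM. Without the WT amygdala library at 739 they were 0.17 and 0.05. For *Kmt2a*-HET it was 0.16 (-0.44 to 0.75). For *Rps4x* and *Tmtc1* the 3 such differences lay between -0.03 and 0.16 and none was called. Over all genes 0.00624% were called for *Kdm5c*-KO, 0.0125% for DM and 0% for *Kmt2a*-HET, the last with 569 genes at an unadjusted *p* under 0.05 and 0 called by edgeR.

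All counts of *Rps4l* in the isoform table were assigned to its transcript of 943 bases (ENSMUST00000071745.3), and its annotated shorter form of 789 bases (ENSMUST00000204242.1) had 0 in every library. The coding transcript of *Rps4x* took between 99.5% and 99.9% of its counts. *Tmtc1* was divided between a transcript of 20 exons (ENSMUST00000060095.14) and one of 19 exons (ENSMUST00000100772.9), which took 62.1% to 96.0% and 4.01% to 37.9%. The share of the 19-exon form in the amygdala was 24.9% ± 8.94 for WT, 22.8% ± 8.32 for *Kmt2a*-HET, 19.4% ± 5.03 for *Kdm5c*-KO and 19.6% ± 3.34 for DM. In the hippocampus it was 20.6% ± 3.76, 19.8% ± 2.54, 16.7% ± 9.64 and 18.0% ± 9.52, so that the genotypes differed by less than the spread of the libraries.

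The libraries were made with a directional kit, but whether counting used the strand is not given in the sources used here. Reads of unspliced *Tmtc1* RNA over the *Rps4l* exon could not then be told apart from *Rps4l* reads. The part of such reads in the counts of *Rps4l* was not tested. The intron holds other gene models, of other lengths. *Gm44020*, on the same strand as *Rps4l*, had at most 3 counts in any library. *Gm44021* and *Gm44022*, on the strand of *Tmtc1*, had at most 26 and 20. *Rps4l* had at least 175 counts in each library and at least 1272 in those without *Kdm5c*.

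Together with these 3 gene models, 8 genes lay within 500 kb of *Rps4l* or overlapped *Tmtc1*. In the DESeq2 fit 6 of them were tested and 0 called in *Kdm5c*-KO against WT, in either region, where 0.756% and 1.01% of all genes were, so that a count of 0 is near the background. The protein-coding neighbours were *Far2* (log2 fold change -0.07 in the amygdala and -0.08 in the hippocampus), which makes fatty alcohols, *Ergic2* (0.02 and 0.13), a protein of vesicles between endoplasmic reticulum and Golgi, *Ipo8* (0.11 and 0.09), a nuclear import receptor, and *Caprin2* (0.40 and 0.02), an RNA-binding protein. Their adjusted *p* was 0.835 or above. The remaining gene, *Gm15763*, a processed pseudogene that overlaps *Tmtc1*, had at most 4 counts in any library. Between regions *Caprin2* was called lower in the hippocampus in WT (log2 -0.53), *Kmt2a*-HET (-0.49) and *Kdm5c*-KO (-0.91), as 1 of 6 neighbours tested, where 21.2%, 29.6% and 24% of all genes were called, so that this count is near the background as well.

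The other 31 genes of small ribosomal subunit proteins were all tested in the 10 genotype comparisons, and 0 were called in any of them. These comparisons called between 0% and 1.01% of all genes, so that 0 of a list of this size, or of the smaller lists that follow, is near the background. Their median log2 fold change lay between -0.08 and 0.07 over these comparisons, against -0.02 to 0.00 over all tested genes, and single genes lay between -0.31 and 0.28. Of 8 other paralogues and retrogenes of ribosomal proteins, such as *Rpl22l1* and *Rps27l*, 6 to 8 were tested and 0 called, with medians between -0.14 and 0.07. Of the 9 genes of the TMTC family and of protein O-mannosylation, 0 were called, with medians between -0.06 and 0.06. Between regions *Pomgnt2*, a transferase that extends O-mannose glycans, was called lower in the hippocampus in all 4 genotypes (log2 -0.61 to -0.45), and *Rpl22l1* in 3 (-0.45 to -0.30), in comparisons that called 21.2% to 29.6% of all genes.

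The genes whose pattern over the 16 libraries of each region was most like that of *Rps4l* were *Pgam2*, a muscle form of phosphoglycerate mutase (Pearson *r* of log2 counts 0.967 in the amygdala and 0.945 in the hippocampus), *Crybb1*, a lens crystallin (0.962 and 0.932), *Tex14*, a component of the bridges between germ cells (0.897 and 0.989), *BC024139* (0.958 and 0.9002) and *Gm45441* (0.905 and 0.940). They were ranked among 15993 genes with a mean of at least 10 normalised counts, and these correlations hold the genotype differences and the scaling that the libraries share. *Pgam2* stood at 122, 109, 434 and 412 normalised counts in WT, *Kmt2a*-HET, *Kdm5c*-KO and DM amygdala. *Tex14* stood at 12.1, 14.5, 119.9 and 136 in the same groups, a lower level with a larger fold. *Rps4x* was most like *Rps27a* (0.960 and 0.9755), *Rps19* (0.980 and 0.948) and *Rpl24* (0.976 and 0.946). *Tmtc1* was most like *Lrba* (0.938 and 0.807), *Ppp1r9a* (0.932 and 0.786) and *Akap9* (0.907 and 0.806).

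Within genotypes *Rps4l* and *Tmtc1* moved in opposite directions. Each library was expressed as its log2 deviation from the mean of its genotype, and 9 correlations were computed over the 16 mice, with two-sided permutation tests of mice within genotypes and Benjamini-Hochberg adjustment over the 9. In the amygdala the *r* of *Rps4l* with *Tmtc1* was -0.914 (permutation *p* = 0.00046, adjusted 0.00207) and Spearman's rho -0.768 (permutation *p* = 0.00324, adjusted 0.0146). In the hippocampus *r* was -0.878 (permutation *p* = 0.00011, adjusted 0.00099) and rho -0.868 (permutation *p* = 0.00018, adjusted 0.00162). Without the 2 libraries farthest from the median of *Rps4l*, *r* was -0.753 and -0.824. Both signs turned with ERCC scaling, to 0.631 and 0.761, so the opposite movement holds only relative to the other genes of a library.

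Opposite movement of this strength was not particular to *Tmtc1* in the amygdala, where 122 of 15992 genes had an *r* with *Rps4l* as low, *Tmtc1* included, and 76 one as high. In the hippocampus 3 genes were as low and 9 as high. In the amygdala *Rps4x* moved with *Rps4l* (*r* = 0.758, permutation *p* = 0.00672, adjusted 0.0151, rho = 0.647, permutation *p* = 0.0126, adjusted 0.0282) and against *Tmtc1* (*r* = -0.837, permutation *p* = 0.00231, adjusted 0.00693, rho = -0.718, permutation *p* = 0.00835, adjusted 0.0251). In the hippocampus these correlations were 0.184 (permutation *p* = 0.504, rho 0.15, *p* = 0.573) and -0.242 (permutation *p* = 0.516, rho -0.297, *p* = 0.260). Without the 2 farthest libraries the first was 0.508 for amygdala and -0.036 for hippocampus, and the second was -0.649 and -0.274. Neither amygdala correlation was particular to its pair. There 1518 of 15992 genes had an *r* with *Rps4l* as high as that of *Rps4x*. An *r* with *Rps4x* as low as that of *Tmtc1* was found for 518.

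The libraries numbered 1 carried much of the amygdala correlations with *Rps4x*, and little of that of *Rps4l* with *Tmtc1* in the hippocampus. *Rps4x* lay above the mean of its genotype in all 4 of them in both regions, *Rps4l* in 4 amygdala and 3 hippocampus libraries, and *Tmtc1* below it in 4 and 3. Without these libraries, a choice made after the values were seen, *r* of *Rps4l* with *Tmtc1* was -0.722 (amygdala) and -0.883 (hippocampus) over 12 mice, whereas *r* of *Rps4l* with *Rps4x* in the amygdala was -0.001. The labels name no batch, but they give these 4 mice lower identification numbers than every other numbered mouse (2 mice carry codes instead), and the part of this in the values was not tested. Of the other 31 small subunit genes, 30 had a positive *r* with *Rps4l* in the amygdala (median 0.773) and 29 in the hippocampus (median 0.222), given with no test. With *Tmtc1*, *r* was negative for 30 of them (median -0.846) and 29 (median -0.194). The part of RNA quality in these shared movements was not tested.

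**Figure D5:**
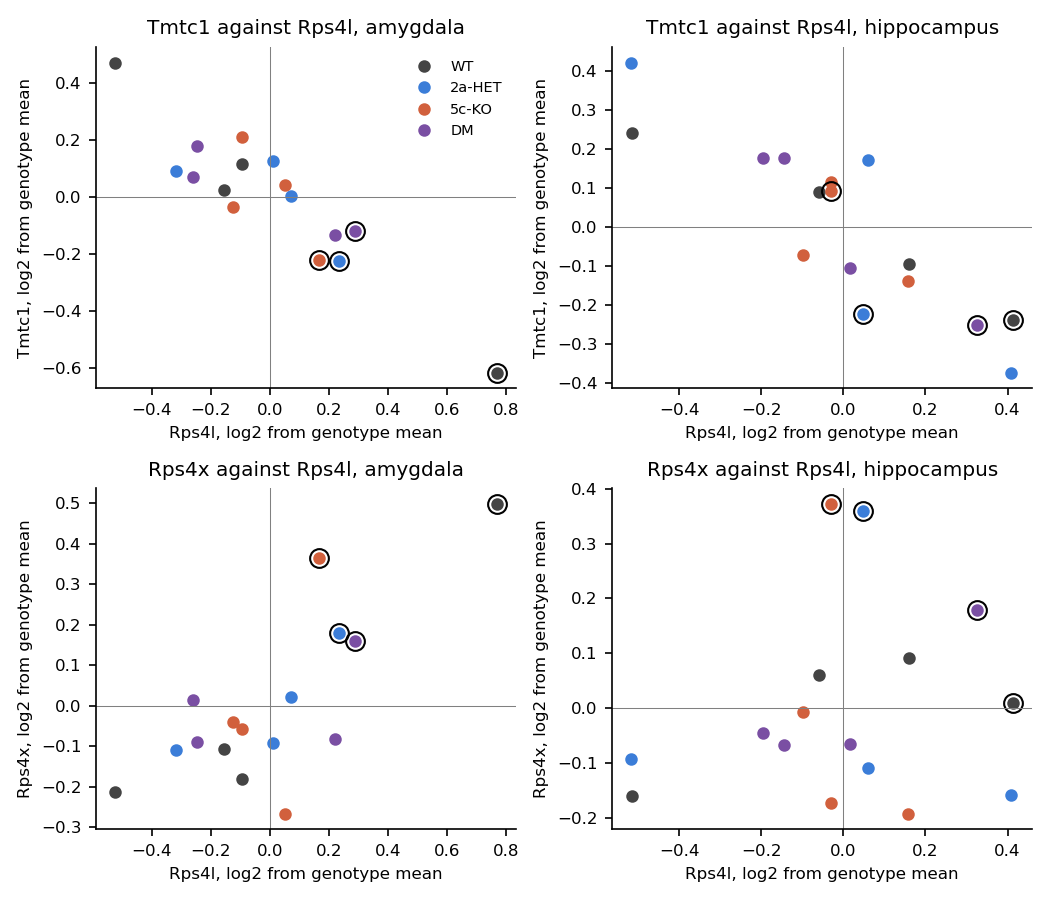
Log2 deviation of *Tmtc1* (top) and *Rps4x* (bottom) from the genotype mean against that of *Rps4l*, in the amygdala (left) and hippocampus (right). Each point is 1 of 16 mice, coloured by genotype, and rings mark the libraries numbered 1. *Tmtc1* falls as *Rps4l* rises in both regions (*r* = -0.914 and -0.878), while *Rps4x* follows *Rps4l* in the amygdala (0.758) mainly through the ringed libraries.

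Across regions of the same mouse the deviations of *Rps4l* had an *r* of 0.541 (permutation *p* = 0.113, adjusted 0.145, rho 0.494, *p* = 0.109), those of *Tmtc1* 0.421 (permutation *p* = 0.106, adjusted 0.145, rho 0.474, *p* = 0.0952) and those of *Rps4x* 0.589 (permutation *p* = 0.0255, adjusted 0.046, rho 0.474, *p* = 0.0983, adjusted 0.141). Only that of *Rps4x* passed, by Pearson's *r* alone, and without the libraries numbered 1 it was 0.146, that of *Rps4l* 0.213 and that of *Tmtc1* 0.176. Without the 2 farthest libraries the values were 0.457 for *Rps4l*, 0.342 for *Tmtc1* and 0.616 for *Rps4x*.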

How the data were processed

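Poly(A) RNA of 32 libraries was sequenced with a directional kit and ERCC spike-ins. Per the study's methods the authors aligned paired reads with STAR 2.5.3a to mm10, kept unique reads without duplicates, and counted with Subread 1.5.0 before DESeq2 1.14.1. The deposited tables hold expected counts (estimated counts) per gene and isoform, with no normalisation, and 7.072% of gene and 35.018% of isoform values were not whole. The estimator and the strand setting are not given in the sources used here. A read shared by near-identical copies is lost under unique alignment or divided under estimation.

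Expected counts were rounded, 92 ERCC rows left out, and 53620 of 53715 IDs given a symbol from GENCODE M21. DESeq2 1.42.0 (R 4.3.3) was fitted to all genes, with the 16 libraries of a region for genotypes and all 32 for regions. Calls had an adjusted *p* under 0.1, and intervals are 95% from the standard error. edgeR 4.0.16 was an alternative, as were TMM and ERCC scaling, a filter (10 counts in 4 libraries), the 2 groups alone, a block, and each library left out. Correlations used log2(normalised count + 1) and 100000 resamples (scipy 1.17.1), and sequences were aligned with Biopython 1.88. The fits were tested on simulated data.

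The members, lists and tests were chosen with earlier results of these data known. Genes named were the members, list genes that were called, the 5 or 3 genes most like each member, and the targeted genes. Neighbours and gene models in the intron are named as a whole list. Mouse numbers in the labels pair the regions: deviations of the same mouse correlated by over 0.1 in 12 of 16 mice. Replicates are separate mice. Depth was 19215489 to 27798976 counts, where 3 counts, the level a count of 0 allows, are at most 0.156 CPM.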

Additional observations from a re-analysis of the deposited data

Results flagged for a closer look

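Of 24 groups of 4 libraries (3 genes, 4 genotypes, 2 regions), 3 held a library far from the other 3, and chance alone flags about 1 group in 20. All 3 were libraries numbered 1 and all concerned *Rps4x*, at 5875 normalised counts in WT amygdala, 4352.5 in *Kmt2a*-HET hippocampus and 4155 in DM hippocampus. The gap to the nearest library was 0.879, 0.892 and 0.922 of the range of the group, above the 95% critical value of Dixon's test. The part of a shared handling of the libraries numbered 1 was not tested.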

How the results depend on the processing

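Scaling by ERCC spike-ins, whose factors spanned 4.57-fold in the amygdala and 5.24-fold in the hippocampus, changed the mean log2 size factors of the groups by -0.65 to 0.39 between genotypes and by 0.41 to 0.81 between regions, and single genes by other amounts. With it *Rps4l* had 1.72 in DM against *Kmt2a*-HET amygdala, and 1.68 against WT and 1.80 against *Kmt2a*-HET in DM hippocampus. It reversed *Rps4x* and *Tmtc1*, in this order, in *Kmt2a*-HET against WT amygdala (0.12, 0.08), *Kdm5c*-KO against WT amygdala (0.0368, 0.0077), DM against *Kdm5c*-KO (-0.23, -0.16 amygdala and -0.72, -0.44 hippocampus), DM against *Kmt2a*-HET (-0.31, -0.23 and -0.36, -0.29) and DM against WT hippocampus (-0.59, -0.39). It also reversed *Tmtc1* in DM against WT amygdala (-0.15), *Kmt2a*-HET (-0.10) and *Kdm5c*-KO (0.0505) against WT hippocampus, and *Rps4l* in DM against *Kdm5c*-KO amygdala (-0.17), where its hippocampal value was -0.81. Between regions the reversed values of *Rps4l*, *Rps4x* and *Tmtc1* were 0.33, 0.72 and 0.45 (WT), 0.23, 0.34 and 0.26 (*Kmt2a*-HET), and 0.33, 0.31 and 0.21 (DM). Those of *Rps4x* and *Tmtc1* were 0.79 and 0.48 in *Kdm5c*-KO. Of the differences between regions it reversed *Rps4l* (-0.10) and *Tmtc1* (-0.19) for *Kmt2a*-HET, and *Rps4x* (-0.41) and *Tmtc1* (-0.24) for DM. The 9 correlations became 0.970, 0.631, 0.681, 0.888, 0.761, 0.904, -0.630, -0.489 and 0.220, in the order *Rps4l* with *Rps4x*, *Rps4l* with *Tmtc1* and *Rps4x* with *Tmtc1* in the amygdala, the same in the hippocampus, then *Rps4l*, *Rps4x* and *Tmtc1* between regions. The cause was not tested.

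With the mouse as a block the regional difference passed the threshold for *Rps4l* in WT (-0.36) and for *Tmtc1* in WT (-0.36), *Kmt2a*-HET (-0.32) and *Kdm5c*-KO (-0.36), and the difference between regions of *Tmtc1* for *Kdm5c*-KO was -0.0058. *Tmtc1* also passed in WT with TMM (-0.40) and the filter on low counts (-0.40), and in *Kdm5c*-KO with its 2 groups alone (-0.36). Of 12 genotype pairs, 0 had every correlation between libraries of the same number over 0.1, though 20 of 48 single correlations were. A rule that asks for every correlation cannot detect a shift confined to the libraries numbered 1. It does not settle what is shared by replicate numbers. With them as a replicate block *Rps4x* had 0.0169 in DM against WT amygdala, and 326, 507, 601, 357 and 547 genes were called (amygdala), or 248, 506, 480, 402 and 436 (hippocampus), in the order *Kmt2a*-HET, *Kdm5c*-KO and DM each against WT, DM against *Kdm5c*-KO and DM against *Kmt2a*-HET. edgeR called 69, 89 and 61 amygdala and 70, 63 and 54 hippocampus genes for *Kdm5c*-KO against WT, DM against WT and DM against *Kmt2a*-HET, and 0 in the other comparisons of genotypes. For *Rps4x* in DM against *Kdm5c*-KO hippocampus it gave -0.0085, and TMM -0.0046. Without the 2 farthest libraries *r* of *Rps4l* with *Rps4x* was 0.508 and -0.036. Without the libraries numbered 1, chosen after the values were seen, it was -0.00135 in the amygdala, and that of *Rps4x* with *Tmtc1* there -0.232. The correlations between regions were then 0.213 (*Rps4l*), 0.146 (*Rps4x*) and 0.176 (*Tmtc1*).

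Leaving out 1 library at a time changed signs or calls in the following results, given as lowest to highest log2 value. Among amygdala comparisons they were *Kmt2a*-HET against WT (-0.358 to 0.129 for *Rps4l*, -0.128 to 0.144 for *Rps4x*, -0.24 to 0.0999 for *Tmtc1*), *Kdm5c*-KO against WT (-0.152 to 0.182 for *Rps4x*, -0.242 to 0.0995 for *Tmtc1*), DM against WT (-0.0825 to 0.189 for *Rps4x*, -0.0884 to 0.252 for *Tmtc1*), DM against *Kdm5c*-KO (-0.0472 to 0.135 for *Rps4l*, -0.0762 to 0.144 for *Rps4x*) and DM against *Kmt2a*-HET (-0.0109 to 0.109 for *Rps4x*). Among hippocampal ones they were *Kmt2a*-HET against WT (-0.191 to 0.11 for *Rps4l*, -0.123 to 0.147 for *Tmtc1*), *Kdm5c*-KO against WT (-0.117 to 0.0871 for *Rps4x*, -0.12 to 0.039 for *Tmtc1*), DM against WT (-0.0404 to 0.0532 for *Rps4x*) and DM against *Kdm5c*-KO (-0.0636 to 0.141 for *Rps4x*). Between regions they were WT (-0.558 to -0.0808 for *Rps4l*, -0.208 to 0.0559 for *Rps4x*, -0.568 to -0.224 for *Tmtc1*), *Kmt2a*-HET (-0.451 to -0.178 for *Tmtc1*), *Kdm5c*-KO (-0.238 to 0.034 for *Rps4x*, -0.441 to -0.294 for *Tmtc1*) and DM (-0.151 to 0.0718 for *Rps4l*). For the differences between regions they were *Kmt2a*-HET against WT (-0.164 to 0.312 for *Rps4l*, -0.219 to 0.0441 for *Rps4x*, -0.0683 to 0.276 for *Tmtc1*), *Kdm5c*-KO against WT (-0.153 to 0.17 for *Rps4x*, -0.145 to 0.199 for *Tmtc1*) and DM against WT (-0.153 to 0.11 for *Rps4x*, -0.0186 to 0.326 for *Tmtc1*). *Rps4l* was called between regions in WT without WT amygdala replicate 4 (adjusted *p* = 0.0565, DESeq2) or WT hippocampus replicate 1 (0.0824). *Tmtc1* was called in WT without WT amygdala replicate 1 (0.00367) or WT hippocampus replicate 2 (0.0613), in *Kmt2a*-HET without its hippocampus replicate 4 (0.0557) and in *Kdm5c*-KO without its amygdala replicate 1 (0.0903). The 6 descriptive values of *Rps4l* kept their sign under all alternatives, between 1.61 and 2.41 with 1 library left out.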
